A study of Homo sapiens with 6 samples.

Results

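The genes described here encode the glutathione, thioredoxin and other antioxidant enzymes of the cell. They were chosen by symbol as 41 rows of an RNA-Seq table of 58024 genes, by a rule that reads no expression value but was written with earlier results of these data known, and each symbol matched 1 row. Its 6 libraries are 3 from parental C4-2B cells and 3 from C4-2B cells resistant to enzalutamide, labelled replicates 0, 1 and 2 in each group. C4-2B is a human prostate cancer line derived from LNCaP cells by passage through castrated mice, and enzalutamide is an antiandrogen drug. The comparison asks how the expression of these enzymes differed once the line had become resistant to the drug.

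The resistant cells had been passaged in rising enzalutamide, from 1 to 20 µM, for at least 6 months and were then held in 5 µM. They are the pooled survivors of 1 cell line. The parental cells were carried in the vehicle, dimethyl sulfoxide, which the labels give as 1% while the study's methods give a smaller maximum. Both groups grew in RPMI medium with fetal bovine serum. The labels also name 10 µM enzalutamide at RNA extraction without saying whether the parental cells received it, so a lasting difference between the groups and an acute effect of the drug cannot be told apart. Nothing in the labels says that the 3 libraries of a group came from separate cultures. The p values therefore measure the spread between these samples, which may be technical. In bulk samples, fewer cells that express a gene and less RNA per cell cannot be told apart.

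Glutathione is a small thiol peptide that is made from glutamate, cysteine and glycine and kept reduced by glutathione reductase. Glutathione peroxidases spend it on peroxides, and glutathione transferases attach it to reactive compounds, many drugs among them. Thioredoxin and the peroxiredoxins form a parallel thiol system, superoxide dismutases and catalase remove superoxide and hydrogen peroxide, and the transcription factor NRF2, held in check by KEAP1, activates many of these genes. In prostate cancer the glutathione transferase GSTP1 is known for the methylation of its promoter and its loss of expression.

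Levels are given as FPKM, fragments per kilobase of a transcript relative to the sequencing depth, so that they can be compared between genes. Differences are log2 fold changes of FPKM with 0.1 added, resistant minus parental, from a limma fit over all genes whose 6 libraries average 0.1 FPKM or more. A gene is called at an adjusted p value (Benjamini-Hochberg over all genes tested) below 0.05. The added 0.1 makes the fold changes of low genes too small. An exact permutation test of 3 against 3 libraries cannot give a p value below 0.1.

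The libraries held 21956 to 27153 genes above 0. The table gives no read counts, and the depth was estimated at 13300000 to 20700000 reads, at which 1 read on a transcript of 1200 bases is worth 0.0484 to 0.0749 FPKM. RMRP, a short non-coding RNA, took 18.4% to 21.5% of the summed FPKM in parental and 11.4% to 12.6% in resistant libraries. RPPH1 took 0% in parental and 10.7% to 11.6% in resistant libraries. Whether a difference between the groups in library preparation or quantification had a part in this, or in other genes listed at 0 in parental libraries, was not tested. Under a median-of-ratios scaling, over genes above 0 in every library, and under quantile normalization, all 27 members called kept their direction. The 10 markers of the C4-2B lineage were all detected. Of these, 7 fell, KLK3 and TMPRSS2 among them, and their summed level was 4227 to 5004 FPKM in parental and 1234 to 1319.9 FPKM in resistant libraries. The 12 markers of blood, stromal and endothelial cells summed to 7.55 to 10.1 FPKM in parental and 8.96 to 15.9 FPKM in resistant libraries. Among the 7 tested, DCN and LUM rose and VWF fell. CD3E was at 0 everywhere, 7 of the 12 stayed below 1 FPKM in every library, and DCN, a matrix proteoglycan gene listed at 0 in parental libraries, reached 3.63, 3.78 and 4.35 FPKM in resistant libraries. The part of these markers in the results was not tested.

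Of the 41 genes, 39 passed the filter on low values. GSTM5 and GSTP1 did not. The resistant cells had 15 of the 39 higher and 12 lower, and 12 were not called. The 27 called are 69.2% of those tested. Of all 24468 genes tested, 44.4% were called, 22.1% higher and 22.3% lower. At a mean of at least 10 FPKM the shares lay closer, with 22 of 32 members (68.8%) and 56.7% of all genes called. A call with a difference of at least 2-fold was made for 8 members higher and 4 lower, while 15.0% and 13.6% of all genes passed these limits. The libraries of the 2 groups did not overlap for 31 members, 16 with the resistant cells above and 15 with them below, and for 54.8% of all genes. The median log2 fold change was 0.04 over the members and -0.05 over all genes tested. The set thus moved in both directions, and every role except the thioredoxin system held genes that rose beside genes that fell.

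**Figure D1:**
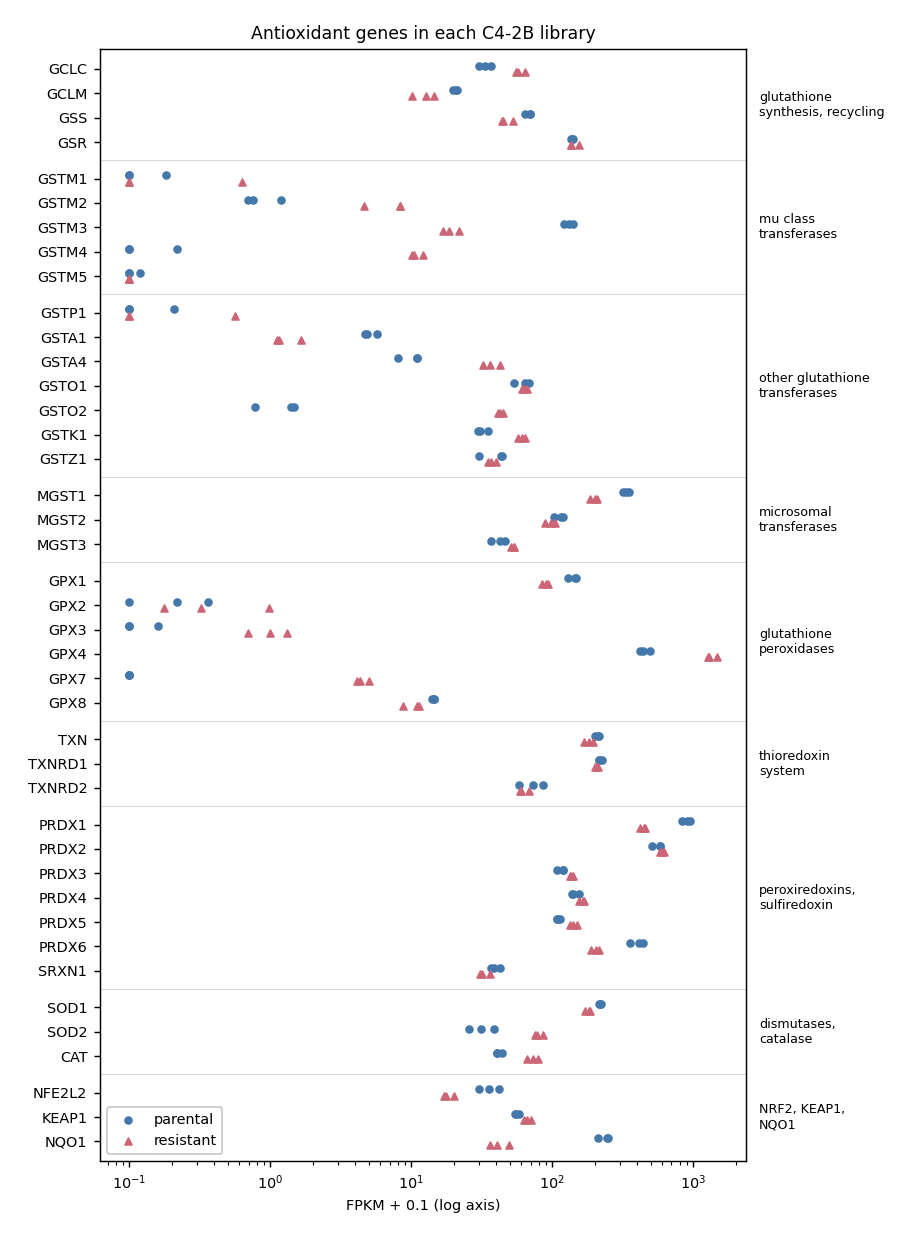
FPKM plus 0.1 of the 41 genes on a log axis, grouped by role, with 1 point for each parental library (blue circles) and each resistant library (red triangles). The resistant libraries lie far to the right for GSTM4, GSTO2 and GPX7 and far to the left for GSTM3 and NQO1, while both groups lie together for GSR, PRDX2 and GSTO1.

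The summed level of all 41 genes was 5003 ± 237 FPKM (SD, n = 3) in parental cells and 4952 ± 238 FPKM (SD, n = 3) in resistant cells, and the libraries overlapped. This sum stayed level while its parts changed. GPX4 took 8.52% to 9.59% of it in parental libraries and 26.6% to 28.1% in resistant libraries, and PRDX1 went from 17.4% to 18.4% down to 8.72% to 9.15%. Without GPX4, the other 40 genes summed to 4554 ± 209.6 FPKM in parental and 3605 ± 135 FPKM in resistant cells (SD, n = 3 each), with no overlap. GPX4 had the largest gain in level, so with the whole sum level the remainder had to be lower. The lower remainder is thus no measure of a general fall in the other 40 genes. By level, PRDX1, PRDX2, GPX4, PRDX6, MGST1 and NQO1 led the parental cells in this order, with GPX4 and PRDX6 within each other's spread. NQO1 shared its spread with TXNRD1, SOD1 and TXN, which came next. In the resistant cells the order was GPX4, PRDX2, PRDX1, TXNRD1, PRDX6 and MGST1, where TXNRD1, PRDX6 and MGST1 lay within each other's spread. NQO1 had moved from about rank 6 to about rank 25, where its libraries overlapped those of GSTO2, GSS and GSTZ1.

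**Figure D2:**
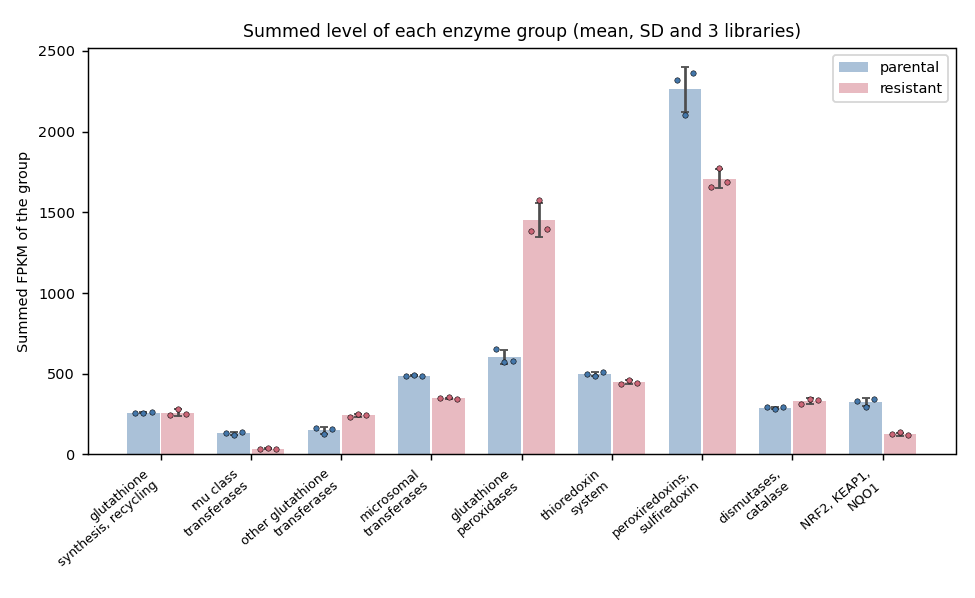
Summed FPKM of each group of enzymes in parental (blue) and resistant (red) cells, with bars for the mean, lines for the SD and points for the 3 libraries. The glutathione peroxidases went from 603 to 1452 FPKM while the peroxiredoxins went from 2261 to 1709 FPKM, and the sums for glutathione synthesis and recycling overlapped.

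The transcripts of the regulator NRF2 and of the enzyme taken most often as its readout were both lower in resistant cells. Protein was not measured in these libraries. NFE2L2, the gene of NRF2 (chromosome 2, 177218667 to 177392756), measured 35.4, 30.1 and 41.7 FPKM in parental replicates 0, 1 and 2 and 17.5, 16.8 and 20.0 FPKM in resistant replicates 0, 1 and 2. Every resistant library lay below every parental one, and NFE2L2 fell by 0.97 on the log2 scale (SE 0.14, limma adjusted p = 0.00211). KEAP1, whose protein marks NRF2 for degradation, measured 54.9, 53.8 and 57.5 FPKM in parental and 66.3, 71.0 and 62.4 FPKM in resistant libraries, again with no overlap. It rose by 0.26 (SE 0.08, limma adjusted p = 0.0314). That call was lost without parental replicate 0, 1 or 2 and without resistant replicate 0 or 1, with limma adjusted p values of 0.0503 to 0.0865. The ratio of KEAP1 to NFE2L2 was 1.57 ± 0.204 in parental and 3.72 ± 0.566 in resistant cells (SD, n = 3 each, exact permutation p = 0.1).

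NQO1, a quinone reductase that is induced through NRF2 (chromosome 16, 69706996 to 69726668), had one of the deepest losses. It measured 243, 209.8 and 247 FPKM in parental libraries and 40.6, 49.1 and 35.9 FPKM in resistant libraries. The means were 233 ± 20.4 and 41.9 ± 6.71 FPKM (SD, n = 3 each), a 5.57-fold lower level and a log2 fold change of -2.48 (SE 0.13, limma adjusted p = 4.05e-05). Of the 50-base windows of its transcript, 19.8% are shared with an overlapping non-coding gene on the other strand. Among its neighbours by position, NOB1 had a log2 fold change of -0.86 (limma adjusted p = 0.00219) and CYB5B one of 0.29 (limma adjusted p = 0.0115), and the other 3 tested, TERF2, NFAT5 and WWP2, were not called.

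NRF2 binds the antioxidant response element, whose core TGACNNNGC (N is any base) was sought on both strands in the RefSeq promoters of GRCh38.p14, 250 bases before to 50 bases after a gene's start. Promoters were at hand for 35 of the 41 genes, 49 in number. The core was found in 11 of these 49 promoters (22.4%), those of 10 genes, and in 4687 of all 35116 promoters (13.3%). The genes were GCLM, GSTM1, GSTM5, GSTA4, GSTO1, GSTP1, MGST1, TXNRD1, GPX2 and KEAP1, which among themselves rose, fell, stayed uncalled or were not tested. The match of GSTP1 alone overlapped the AP-1 site TGANTCA, which 7.71% of all promoters hold. Printed below, 5′ to 3′ on the strand of the gene, is a core (in capitals) with its flanks from each of 5 members with different outcomes. GCLM fell, TXNRD1 was not called, GSTA4 and KEAP1 rose, and GSTP1 was close to 0 in all libraries. TXNRD1 and KEAP1 held further matches that are not printed, and the KEAP1 match lies in promoter 2 of that gene. A match is a description of these letters and not a bound site.
GCLM, chr1:93909446-93909474, minus strand: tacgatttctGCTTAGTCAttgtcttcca
TXNRD1, chr12:104215670-104215698, plus strand: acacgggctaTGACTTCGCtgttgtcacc
GSTA4, chr6:52995275-52995303, minus strand: ccgggaccgcTGACCTGGCgctttgtgcg
KEAP1, chr19:10502807-10502835, minus strand: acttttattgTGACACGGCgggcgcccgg
GSTP1, chr11:67583736-67583764, plus strand: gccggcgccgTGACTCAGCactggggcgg

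Glutathione synthesis showed a split between the parts of its first enzyme. Glutamate-cysteine ligase makes the first and limiting step from a catalytic subunit, GCLC, and a modifier subunit, GCLM, that raises its efficiency. GCLC (chromosome 6, 53497341 to 53616970) measured 33.4, 29.9 and 36.6 FPKM in parental and 57.2, 63.6 and 55.0 FPKM in resistant libraries, with every resistant library above every parental one. It rose by 0.82 on the log2 scale (SE 0.10, limma adjusted p = 0.00118). GCLM (chromosome 1, 93885199 to 93909456), whose promoter window is printed above, went the other way without overlap. It measured 21.1, 19.6 and 20.5 FPKM in parental and 9.99, 14.4 and 12.6 FPKM in resistant libraries and fell by 0.74 (SE 0.15, limma adjusted p = 0.00778). The ratio of GCLC to GCLM was 1.58, 1.53 and 1.79 in parental libraries and 5.72, 4.42 and 4.37 in resistant libraries, means of 1.63 ± 0.136 and 4.84 ± 0.765 (SD, n = 3 each, exact permutation p = 0.1).

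GSS, glutathione synthetase, which adds the glycine, fell by 0.53 (SE 0.10, limma adjusted p = 0.00509), from 67.4 ± 3.50 to 46.9 ± 4.79 FPKM (SD, n = 3 each). GSR, glutathione reductase, measured 136, 141 and 138 FPKM in parental and 135, 154 and 136 FPKM in resistant libraries. These overlapped, and the 95% interval of its log2 difference ran from -0.14 to 0.21 (limma adjusted p = 0.71). The summed level of the 4 genes was 259 ± 5.31 FPKM in parental and 259.6 ± 21.2 FPKM in resistant cells (SD, n = 3 each).

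**Figure D3:**
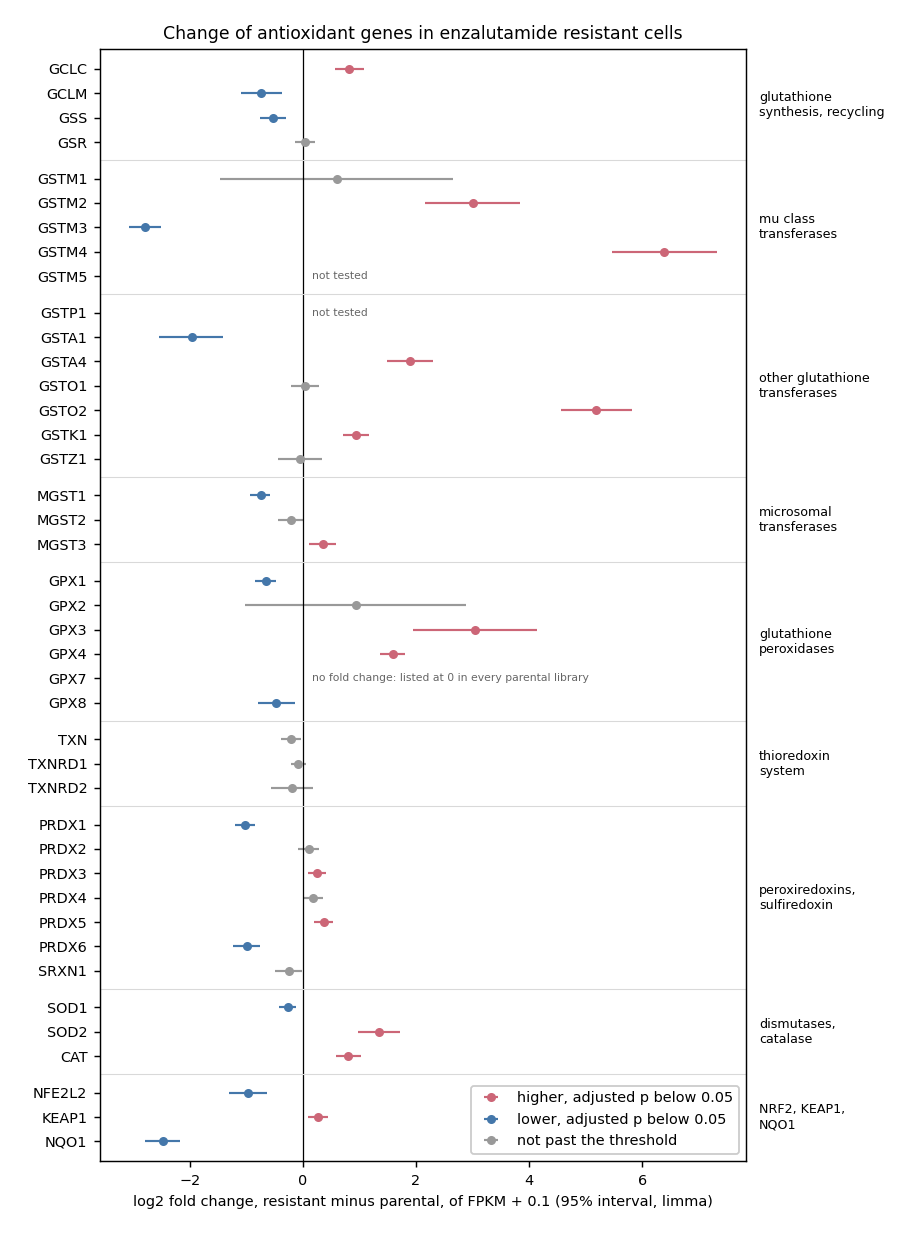
Log2 fold change, resistant minus parental, of FPKM plus 0.1 for each gene, with the 95% interval of the limma fit and color for the call. GSTM4 (6.39) and GSTO2 (5.19) lie farthest to the right and GSTM3 (-2.79) and NQO1 (-2.48) farthest to the left, and the 3 genes of the thioredoxin system lie near 0. GSTM5 and GSTP1 were not tested, and no fold change is given for GPX7.

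The mu class glutathione transferases, a cluster of 5 genes on chromosome 1, kept GSTM3 as their highest member at a far lower level, while GSTM4 and GSTM2 rose. GSTM3 (109733932 to 109741038, minus strand) measured 132, 121 and 139.9 FPKM in parental and 16.7, 21.7 and 18.5 FPKM in resistant libraries. All 3 resistant libraries lay far below the parental ones. The means were 131 ± 9.40 and 19.0 ± 2.54 FPKM (SD, n = 3 each), a 6.91-fold lower level and a log2 fold change of -2.79 (SE 0.12, limma adjusted p = 1.95e-05). GSTM4 (109656099 to 109665496, plus strand) was listed at 0, 0.116 and 0 FPKM in parental libraries and measured 10.0, 12 and 10.3 FPKM in resistant libraries. It rose by 6.39 on the log2 scale (SE 0.38, limma adjusted p = 6.18e-05). The size of that change rests on the amount added before the log, since it was 3.50 with 1 FPKM added and 8.85 with 0.01 FPKM, and the call held with each. GSTM2 (109668022 to 109709551, plus strand) measured 1.09, 0.651 and 0.588 FPKM in parental and 4.48, 8.16 and 8.26 FPKM in resistant libraries, without overlap. It rose 8.98-fold, by 3.0 on the log2 scale (SE 0.35, limma adjusted p = 0.000792).

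The other members of the cluster stayed near 0. GSTM1 was listed at 0.0814, 0 and 0 FPKM in parental and at 0, 0.530 and 0 FPKM in resistant libraries (limma adjusted p = 0.598). GSTM5 was above 0 in 1 library, parental replicate 2, at 0.0184 FPKM. GSTM3 made up 99.1% to 99.6% of the summed mu class level in parental libraries and 49.9% to 53.6% in resistant libraries, where GSTM4 took 27.7% to 32.0% and GSTM2 14.4% to 22.3%. The sum of the 5 genes went from 132 ± 9.36 to 36.9 ± 5.62 FPKM, and the sum without GSTM3 from 0.848 ± 0.292 to 17.9 ± 3.16 FPKM (SD, n = 3 each), both without overlap.

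These genes are near copies of each other, and short reads can be split between them. Of the 50-base windows of the GSTM2 transcript, 46.1% occur in another gene, 45.8% in GSTM1 alone. The share is 18.9% for GSTM4 and 6.24% for GSTM3, so that the levels of GSTM4 and GSTM3 rest mostly on sequence of their own. Around the cluster, GNAI3 (log2 fold change -0.77, limma adjusted p = 0.0037) and AMPD2 (-0.90, limma adjusted p = 0.00199), which lie beyond GSTM4, were lower, and CSF1, beyond GSTM3, was higher (1.29, limma adjusted p = 0.0231). GNAT2 and AHCYL1 were not called. Of the genes directly beside GSTM4 and GSTM2, AMPD2 was thus lower and GSTM1 was not called.

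**Figure D4:**
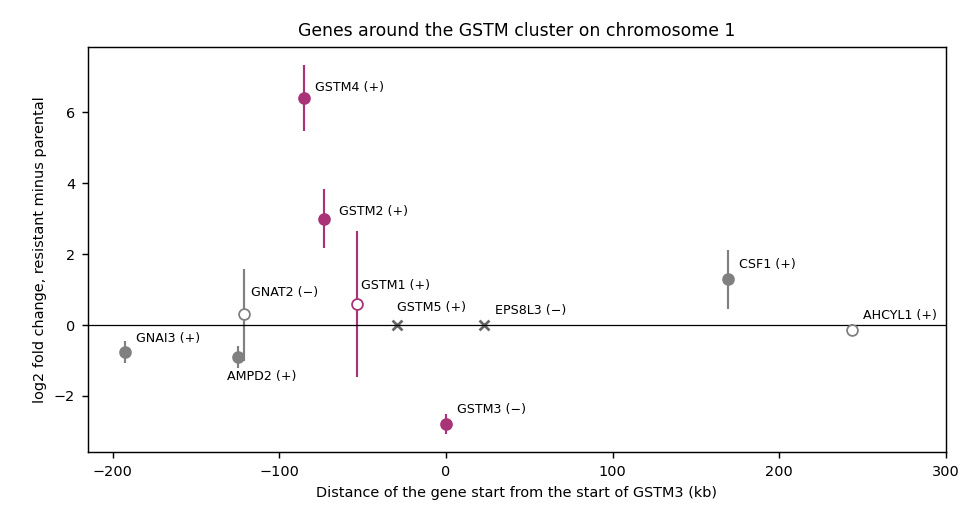
Log2 fold change, resistant minus parental, of the genes around the mu class cluster against the distance of their start from that of GSTM3, with the 95% interval of the limma fit. Members are purple and neighbours grey, filled symbols passed the test and open ones did not, crosses mark genes that were not tested, and the strand stands in brackets. GSTM4 and GSTM2 lie above 0, AMPD2 beside them lies below 0, GSTM1 has an interval that spans 0, and GSTM3 lies lowest.

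The sequences just before the starts of GSTM4 and GSTM2 are shown because both genes came up from low levels side by side, and those of GPX7 and GSTP1 because GPX7 was at 0 in every parental library and GSTP1 close to 0 in all 6. They are the 100 bases before the RefSeq start in GRCh38.p14, 5′ to 3′ on the plus strand, with the CG pairs in capitals. In the whole promoter of 300 bases, GSTM4 held 21 CG pairs, GSTM2 17, GPX7 30 and GSTP1 36, beside a median of 14 over all promoters. Over the 250 bases before the start, GSTM4 and GSTM2 were identical at 58.4% of positions, while GSTM1 and GSTM5 were identical at 88.4%. DNA methylation was not measured in these libraries.
GSTM4, chr1:109655999-109656098: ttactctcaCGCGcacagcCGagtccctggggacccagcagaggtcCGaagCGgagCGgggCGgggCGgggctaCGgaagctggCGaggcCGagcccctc
GSTM2, chr1:109667957-109668056: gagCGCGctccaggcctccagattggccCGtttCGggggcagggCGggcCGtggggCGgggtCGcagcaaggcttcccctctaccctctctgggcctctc
GPX7, chr1:52602271-52602370: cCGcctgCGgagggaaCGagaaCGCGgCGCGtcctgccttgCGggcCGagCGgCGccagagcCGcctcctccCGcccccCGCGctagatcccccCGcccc
GSTP1, chr11:67583712-67583811: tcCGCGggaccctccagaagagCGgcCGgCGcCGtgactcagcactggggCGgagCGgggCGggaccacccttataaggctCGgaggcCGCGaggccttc

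Among the other soluble glutathione transferases, 3 of 6 tested rose and 1 fell, so 66.7% were called, beside 44.4% of all genes tested. GSTO2, an omega class enzyme that reduces dehydroascorbate (chromosome 10, 104268873 to 104304950), measured 1.37, 0.681 and 1.31 FPKM in parental and 41.3, 42.4 and 44.7 FPKM in resistant libraries. Its resistant level was 38.2-fold the parental level and the log2 fold change 5.19 (SE 0.26, limma adjusted p = 3.25e-05). Its neighbour GSTO1, the other omega class gene, measured 68.5, 53.2 and 63.9 FPKM in parental and 62.5, 65.5 and 61.0 FPKM in resistant libraries, which overlapped. The 95% interval of the GSTO1 difference ran from -0.22 to 0.29 on the log2 scale (limma adjusted p = 0.822). The ratio of GSTO2 to GSTO1 was 0.0178 ± 0.00431 in parental and 0.681 ± 0.0459 in resistant cells (SD, n = 3 each, exact permutation p = 0.1), so the 2 genes came within 2-fold of each other only in the resistant libraries. On the other side of GSTO2, ITPRIP had a log2 fold change of -1.02 (limma adjusted p = 0.00871), and SFR1, beyond GSTO1, one of 0.82 (limma adjusted p = 0.016). Only 0.03% of the windows of GSTO2 occur in another gene.

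The alpha class genes moved in opposite directions. GSTA4, which conjugates the lipid aldehyde hydroxynonenal (chromosome 6, 52977948 to 52995304), measured 10.8, 7.96 and 10.9 FPKM in parental and 32.2, 36.1 and 42.3 FPKM in resistant libraries. It rose 3.73-fold, by 1.89 on the log2 scale (SE 0.17, limma adjusted p = 0.000264), and the groups did not overlap. GSTA1, a detoxifying enzyme best known from the liver (chromosome 6, 52791371 to 52803860), measured 4.77, 4.61 and 5.58 FPKM in parental and 1.02, 1.05 and 1.56 FPKM in resistant libraries. It fell by 1.97 (SE 0.23, limma adjusted p = 0.000871), again without overlap, and 22.1% of its windows occur in its near copy GSTA2.

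GSTK1, the kappa class enzyme of mitochondria and peroxisomes, rose by 0.93 (SE 0.09, limma adjusted p = 0.00046), from 31.8 ± 2.91 to 60.7 ± 3.53 FPKM (SD, n = 3 each). GSTZ1, which acts in tyrosine breakdown, had overlapping libraries and a log2 fold change of -0.06 (95% interval -0.44 to 0.33, limma adjusted p = 0.804). GSTP1, the pi class gene whose promoter is printed above, was listed at 0, 0.108 and 0 FPKM in parental and at 0, 0 and 0.461 FPKM in resistant libraries. It was above 0 in 1 library of each group and did not pass the filter on low values.

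The microsomal transferases, membrane proteins that also reduce lipid peroxides, were led by MGST1. MGST1 measured 331, 351 and 318 FPKM in parental and 207, 202 and 184 FPKM in resistant libraries and fell by 0.75 (SE 0.07, limma adjusted p = 0.000379). MGST3 had a log2 fold change of 0.35 (limma adjusted p = 0.033). That call was lost without parental replicate 0 or 1 and without resistant replicate 0, 1 or 2, with limma adjusted p values of 0.0533 to 0.0924. MGST2 had overlapping libraries and a log2 fold change of -0.22 (95% interval -0.45 to 0.02, limma adjusted p = 0.116). Summed over all 15 transferase genes, soluble and microsomal, the level was 768 ± 25.8 FPKM in parental and 626 ± 17.8 FPKM in resistant cells (SD, n = 3 each), without overlap. Within this sum MGST1 and GSTM3 lost share, GSTM3 from 16.4% to 17.9% down to 2.75% to 3.37%, and GSTO2 went from at most 0.175% to 6.58% to 7.15%.

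The glutathione peroxidases held the largest gain in level. GPX4, the selenoenzyme that reduces phospholipid hydroperoxides in membranes and thereby protects cells from ferroptosis (chromosome 19, 1103982 to 1106791), measured 493, 416 and 438 FPKM in parental and 1281, 1468 and 1294 FPKM in resistant libraries. Every resistant library was far above every parental one. The means were 449 ± 39.8 and 1347 ± 105 FPKM (SD, n = 3 each), a 3.0-fold rise and a log2 fold change of 1.59 (SE 0.09, limma adjusted p = 5.43e-05), and none of its windows occurs in another gene. Of the genes beside GPX4, POLR2E fell by 0.65 (limma adjusted p = 0.00258), SBNO2 on the other side was not called, and ABCA7 (0.64, limma adjusted p = 0.0249) and CBARP (0.75, limma adjusted p = 0.0429) farther out rose.

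GPX1, the abundant soluble peroxidase, measured 146, 145 and 129 FPKM in parental and 89.5, 92.4 and 84.0 FPKM in resistant libraries. It fell by 0.66 (SE 0.08, limma adjusted p = 0.000894) without overlap, but 78.2% of its windows occur in other genes, among them an overlapping one and pseudogenes, so its level is uncertain. The ratio of GPX4 to GPX1 was 3.22 ± 0.295 in parental and 15.2 ± 0.808 in resistant cells (SD, n = 3 each, exact permutation p = 0.1). GPX4 made up 72.4% to 75.4% of the summed level of the 6 peroxidases in parental libraries and 92.3% to 93.2% in resistant libraries.

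GPX7, a peroxidase of the endoplasmic reticulum (chromosome 1, 52602371 to 52609051), was listed at 0 in all 3 parental libraries and measured 3.98, 4.25 and 4.89 FPKM in resistant libraries. It passed the test (limma adjusted p = 4.63e-05), and no fold change is given against a group at 0. None of the 6 neighbours tested on either side of GPX7, from ORC1 to ZYG11B, was called. GPX8, its relative in the same compartment, had a log2 fold change of -0.47 (limma adjusted p = 0.0276), and its call was lost without parental replicate 0, 1 or 2, with limma adjusted p values of 0.0558 to 0.0778, and under the median-of-ratios scaling (0.0675). GPX3, the secreted plasma enzyme, was listed at 0, 0 and 0.0605 FPKM in parental and measured 1.22, 0.588 and 0.889 FPKM in resistant libraries. It rose (limma adjusted p = 0.0023), with a log2 fold change that was 3.04 with 0.1 FPKM added, 0.88 with 1 FPKM and 5.51 with 0.01 FPKM. GPX2 stayed below 1 FPKM in all libraries with overlap (limma adjusted p = 0.387).

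No gene of the thioredoxin system was called in this fit, although they lie among the higher members. TXN, thioredoxin itself, measured 214, 202 and 209.6 FPKM in parental and 167, 193 and 182 FPKM in resistant libraries. The groups did not overlap, but the log2 fold change of -0.21 missed the threshold (95% interval -0.39 to -0.03, limma adjusted p = 0.0575), and it was past it without resistant replicate 1 (-0.26, limma adjusted p = 0.043) and when genes averaging at least 1 FPKM were tested (limma adjusted p = 0.0496). TXNRD1, the cytosolic reductase that keeps thioredoxin reduced, measured 213, 224 and 215 FPKM in parental and 203, 210.0 and 202 FPKM in resistant libraries. The 95% interval of its difference ran from -0.22 to 0.05 (limma adjusted p = 0.282), and its sign turned under both other scalings (0.02 each). TXNRD2, the mitochondrial reductase, had overlapping libraries and a log2 fold change of -0.20 (limma adjusted p = 0.336).

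The peroxiredoxins, which reduce hydrogen peroxide with electrons from thioredoxin, exchanged their order. PRDX1 (chromosome 1, 45510914 to 45542732), the highest of all 41 genes in parental cells, measured 895, 835 and 947 FPKM in parental and 417, 456 and 445 FPKM in resistant libraries. It fell by 1.02 (SE 0.07, limma adjusted p = 0.000112), and no library overlapped. Of its windows, 35.4% are shared with MMACHC on the other strand. PRDX2, the other abundant cytosolic form, measured 584, 509.8 and 578 FPKM in parental and 579, 619 and 586 FPKM in resistant libraries, which overlapped (log2 fold change 0.10, 95% interval -0.08 to 0.28, limma adjusted p = 0.344). The ratio of PRDX1 to PRDX2 was 1.60 ± 0.0606 in parental and 0.738 ± 0.0196 in resistant cells (SD, n = 3 each, exact permutation p = 0.1).

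PRDX6, which also has phospholipase activity and uses glutathione (chromosome 1, 173477330 to 173488815), measured 415, 356 and 441 FPKM in parental and 188, 213 and 205 FPKM in resistant libraries. It fell by 0.99 (SE 0.10, limma adjusted p = 0.000421) without overlap. The organelle forms differed less. PRDX5, found in mitochondria and peroxisomes, rose by 0.37 (limma adjusted p = 0.00583). Mitochondrial PRDX3 had a log2 fold change of 0.24 (limma adjusted p = 0.0272), a call that was lost without parental replicate 2 and without resistant replicate 0, 1 or 2, with limma adjusted p values of 0.0593 to 0.0745. PRDX4 of the endoplasmic reticulum had a log2 fold change of 0.18 and was not called (limma adjusted p = 0.0886), but was called under the median-of-ratios scaling (0.0379) and under quantile normalization (0.0129). SRXN1, sulfiredoxin, which repairs overoxidized peroxiredoxins, had a log2 fold change of -0.25 (limma adjusted p = 0.0847), and 90.6% of its windows are shared with an overlapping gene. The summed level of the 7 genes was 2261 ± 138 FPKM in parental and 1709 ± 61.0 FPKM in resistant cells (SD, n = 3 each), without overlap.

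Of the enzymes that act on superoxide and hydrogen peroxide without thiols, the mitochondrial and peroxisomal ones rose. SOD2, the manganese superoxide dismutase of mitochondria (chromosome 6, 159669069 to 159762529), measured 38.3, 25.5 and 31.1 FPKM in parental and 75.8, 85.2 and 77.5 FPKM in resistant libraries. It rose 2.51-fold, by 1.35 on the log2 scale (SE 0.15, limma adjusted p = 0.000717), without overlap. CAT, catalase of the peroxisome (chromosome 11, 34438934 to 34472060), measured 40.3, 40.2 and 44 FPKM in parental and 65.5, 72.9 and 78.6 FPKM in resistant libraries. It rose by 0.80 (SE 0.09, limma adjusted p = 0.000774), also without overlap. SOD1, the copper and zinc enzyme of the cytosol, fell by 0.27 (SE 0.06, limma adjusted p = 0.011), from 217 ± 3.96 to 179 ± 7.93 FPKM (SD, n = 3 each). The ratio of SOD2 to SOD1 was 0.146 ± 0.0317 in parental and 0.443 ± 0.0141 in resistant cells (SD, n = 3 each, exact permutation p = 0.1).

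Genes of the same pathways outside the 41 were counted from lists. Of 26 other NRF2 targets, 24 were tested. Of these, 7 were higher and 14 lower, so 87.5% were called, beside 44.4% of all genes tested. Their median log2 fold change was -0.70, beside -0.05 for all genes tested. The aldo-keto reductases that also reduce steroids had the largest differences of that list and went against its median. AKR1C3, which makes testosterone from androstenedione, measured 0.125, 0.380 and 0.166 FPKM in parental and 79.3, 102 and 90.3 FPKM in resistant libraries (log2 fold change 8.20, limma adjusted p = 1.27e-05). AKR1C1 was listed at 0 in parental libraries and measured 4.71, 4.77 and 4.50 FPKM in resistant libraries, and AKR1C2 rose by 5.37 (limma adjusted p = 6.93e-05). These 3 are near copies of each other, and reads may be split between them. The other targets called higher were UGDH (log2 fold change 2.71), TXNIP (1.48), FTL (1.32) and ABCC2 (2.79), the last averaging below 1 FPKM. Among the targets that fell were ME1 (-2.76), which acts in the supply of NADPH, and HMOX1 (-2.25), the inducible heme oxygenase. All of these beyond the AKR1C genes were named after their values were seen. Among the 12 regulators and partners of NRF2, 11 were tested, 4 were higher and 4 lower (72.7% called, median 0.02). MAFF, a small partner of NRF2, rose by 2.30, BTRC, part of another ubiquitin ligase for NRF2, rose by 1.29, and NFE2L3, a relative of NRF2, fell by 1.15. Without resistant replicate 1 or 2 only 2 of these regulators were called higher, and without parental replicate 0 or 2 or resistant replicate 2 only 2 were called lower.

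Of 33 further glutathione and redoxin genes in the table, 27 were tested, 5 were higher and 10 lower (median -0.16). The share called, 55.6%, lay near the 44.4% of all genes tested and the 56.7% of all genes averaging at least 10 FPKM. GGT1, which breaks down glutathione outside the cell, measured 64.4, 65.7 and 64.8 FPKM in parental and 10.9, 7.99 and 8.67 FPKM in resistant libraries and fell by 2.82 (SE 0.13, limma adjusted p = 2.37e-05). CHAC1, which breaks it down inside the cell, fell by 2.01 (limma adjusted p = 0.000106), and MSRA, a repair enzyme for oxidized methionine, fell by 1.90 (limma adjusted p = 0.00128). Of 13 genes of the NADPH oxidases, which make superoxide, 4 were tested and 2 were called, 50.0% beside 44.4% of all genes tested. NOX5 fell by 1.96 (limma adjusted p = 0.00183), and CYBB, listed at 0 in all parental libraries and at 0.132 to 0.981 FPKM in resistant libraries, was called higher (limma adjusted p = 0.0386), a call that was lost when any library except resistant replicate 1 was left out.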

How the data were processed

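RNA-Seq of 3 parental and 3 enzalutamide resistant C4-2B libraries was used. According to the study's methods, single-end reads of 50 bp were trimmed with TrimGalore 0.4.3, aligned with STAR 2.5.3 to GRCh38 and quantified with Cufflinks 2.2.1 on GENCODE 25. The submitters' processing notes instead name Trimmomatic 0.27, FastQC 0.10.1 and mm10. The gene identifiers are human, and 99.9% of the 56980 that matched GENCODE 44 overlap their GRCh38 position there. The values deposited by the authors are FPKM, a unit taken from the methods and the values, since the header names none. The labels name a stranded and another TruSeq kit, and the strand setting of the quantification is not given in the sources used here. No pair of libraries held identical values.

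Depth was estimated from the smallest steps of single-transcript genes, with fragments taken as 200 bases. With no counts in the table, no count test or counting interval was made, and a 0 was read as listed at 0.

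Groups were compared with limma 3.58.1 (R 4.3.3) on log2 of FPKM plus 0.1 over the 24468 genes averaging 0.1 FPKM or more, with a variance trend and two-sided Benjamini-Hochberg adjusted p values. The fit was tested on simulated data. Ratios were compared by exact permutation with scipy 1.17.1. Their pairs were not in the plan of tests, and each pair holds a gene that already separated the groups. Their p value of 0.1, the lowest possible, thus adds no support beyond the values of the genes. Python 3.11.15, pandas 2.3.3 and numpy 2.4.6 served for the tables and matplotlib 3.10.9 for the figures. Gene positions and 50-base windows shared with other genes came from GENCODE 44, and promoters from RefSeq. The position of SOD2 was matched by its symbol.

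All 41 members are reported. Values per library are given for members called at 2-fold or more with a mean of at least 1 FPKM, for those at 0 in a group, and for GCLC, GCLM, GSR, TXN, TXNRD1, NQO1, NFE2L2 and KEAP1, and some others were added after their values were seen. From each other list the 3 called genes with the largest change at a mean of at least 1 FPKM are named. Neighbouring genes were taken by position. The members and lists were chosen with earlier results of these data known. The alternatives covered the added value, the filter, the scaling, the variance trend, the replicate number as a block, the removal of each library in turn and a 2-fold limit. The authors' own differential calls were not used. Some genes of the other lists are not reported here. Same-numbered libraries did not deviate together, so the replicate numbers were not taken to pair the samples.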

Additional observations from a re-analysis of the deposited data

How the results depend on the processing

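Of the 39 members tested, 27 kept their call and direction in every alternative fit that tested them, and 12 did not. There were 14 such fits for each member except GPX2 and GPX3, with 13, and GSTM1, with 12. The counts of 15 higher and 12 lower were 8 and 4 when a 2-fold difference was also asked for. The median log2 fold change of the members, 0.04, was 0.14 under the median-of-ratios scaling, which moved the median of all genes from -0.05 to 0.05, and 0.15 under quantile normalization. The sign turned for 4 members that were not called: GSR with a range of -0.02 to 0.07 and GSTO1 with one of -0.07 to 0.11 over the fits that leave out a library, GSTZ1 with one of -0.23 to 0.04 over these fits and with 0.05 and 0.04 under the median-of-ratios and quantile scalings, and TXNRD1 with 0.02 under both scalings. GSR was called higher under quantile normalization (0.19, limma adjusted p = 0.0467). TXN was called lower with a mean of at least 1 FPKM (limma adjusted p = 0.0496) and without resistant replicate 1 (0.043). Without the variance trend, PRDX5 (limma adjusted p = 0.05), SOD1 (0.098), MGST3, GPX8, PRDX3 and KEAP1 missed the threshold. The count of NRF2 regulators, 4 higher and 4 lower, ranged from 2 to 4 in both directions without a library. The single NADPH oxidase gene called higher, CYBB, gave 0 to 1 without a library, and 0 with 1 FPKM added, with a mean of at least 1 FPKM, under quantile normalization and with the replicate block. The replicate numbers did not pair the samples, since the deviations of same-numbered libraries had correlations of 0.00176, 0.018 and -0.00138. With the replicate block 12 members were higher and 12 lower, 9463 genes in all were called in place of 10868, and KEAP1, MGST3 and PRDX3 were the members that lost their call. GSTM1, GSTM5, GSTP1 and GPX2 stayed below 1 FPKM in every library. Of these, GSTM1 and GPX2 were tested and not called, and GSTM5 and GSTP1 were not tested.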
